A study of Mus musculus with 10 samples.

Results

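The genes described here code for the subunits of the mitochondrial respiratory chain and the ATP synthase, measured as RNA in keratinocytes of mouse back skin. They were chosen by symbol: complex I subunits (Ndufa, Ndufb, Ndufc, Ndufs and Ndufv genes and mt-Nd genes), complex II (Sdha to Sdhd), complex III (Uqcr genes and mt-Cytb), complex IV (Cox4 to Cox8 and mt-Co genes) and complex V (Atp5 and mt-Atp genes), with the Ndufaf assembly factors and pseudogenes left out. The rule found 93 genes among the 15987 genes listed for all 10 libraries, 80 of them nuclear and 13 encoded by mitochondrial DNA (mtDNA). Complex I had 43 of these genes, complex II had 4, complex III had 9, complex IV had 18 and complex V had 19. Ndufa4 and Ndufa4l2 were placed with complex IV, where the Ndufa4 protein is known to sit. The 8 Ndufaf genes, Ndufb1-ps and Atp5l2-ps matched the symbols and were left out, and Cox4i2, Cox6a2, Cox7b2, Cox8b and Cox8c were not listed for any library. All 93 genes passed the filter on low values.

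The series holds 4 groups. The knockout mice are labelled Gsdma1KO/KO;Gsdma3fx/fx;K14-Cre, that is, with knockout alleles of Gsdma1, floxed alleles of Gsdma3 and a Cre that the K14 promoter drives in epidermal and hair follicle keratinocytes. The control mice are labelled wild type. Back skin was rubbed 2 times a day for 3 days with acetone and olive oil mixed 4 to 1 (AOO below), a treatment that disturbs the lipid barrier, or with water, and cells were taken on day 5. There were 3 knockout AOO, 2 knockout water, 3 control AOO and 2 control water libraries. The epidermis was freed with dispase and its keratinocytes with trypsin, so that all libraries are bulk RNA of that cell preparation. In bulk RNA, fewer cells of a type and less RNA per cell cannot be told apart. The labels give no age or sex, and do not tie libraries to animals. P-values therefore describe spread among libraries, part of which may be technical.

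The recovered depth was 15914663 to 21812292 reads per library. Values are normalised read counts, on a scale where 1 read was worth 0.881 to 1.21 units. Summed over 6 basal keratinocyte genes such as Krt5 and Krt14 the libraries held 510907 to 849147 units. Gsdma3, the floxed gene, measured 0, 0.898 and 0 in the knockout AOO libraries and 2.65 and 0 in the knockout water libraries, against 68.7, 63.1 and 177 in the control AOO libraries and 62.5 and 283 in the control water libraries. Gsdma was present in every knockout library (259.7, 843 and 385 under AOO and 170.2 and 170.3 under water), counted over the gene as a whole, which leaves its deleted part unseen. The 4 Y-linked genes examined were present in all 6 AOO libraries (sums of 3583 to 4967) and had 0 reads in all 4 water libraries, so that treatment and the presence of Y-linked transcripts cannot be told apart in any comparison of AOO with water. Control water replicate 2 stood apart from the other libraries, also in hair follicle keratins, and the results that rest on it are given with and without it.

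The respiratory chain sits in the inner mitochondrial membrane. Complexes I and II pass electrons from NADH and succinate to ubiquinone, complex III passes them on to cytochrome c and complex IV to oxygen, while complexes I, III and IV pump protons that drive the ATP synthase, complex V. Most subunits are encoded in the nucleus and imported, but the membrane-embedded cores of complexes I, III and IV and part of complex V are encoded by mtDNA, so each of those complexes needs products of both genomes. Basal keratinocytes divide and keep mitochondria, which are cleared as the cells cornify.

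Expressed per kilobase of transcript and averaged over the 10 libraries, the levels of the members spanned from 21.2 units for Cox7a1 to 171684 for mt-Co1. The 7 most abundant members were all encoded by mtDNA, with mt-Cytb at 77368 and mt-Nd1 at 50674 units per kilobase. Among nuclear members Atp5b, the catalytic beta subunit of ATP synthase, was highest at 9317, followed by Cox6a1 (6876) and Cox4i1 (6823), whose levels in each group were closer than 1 SD. The median nuclear member measured 766 units per kilobase in complex I, 720 in complex II, 2501 in complex III, 2967 in complex IV and 2689 in complex V. The median subunits of complexes I and II thus had lower levels per kilobase than those of complexes III to V. Where a gene has several principal transcripts the level depends on the one chosen, and for 4 members these differed in length by more than 2-fold.

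In knockout keratinocytes, transcripts of nuclear subunits of all 5 complexes were higher under AOO than under water. Of the 80 nuclear members 41 were called higher and 0 lower by limma (Benjamini-Hochberg adjusted p under 0.05 over all 15958 genes tested), while 6.74% of all genes were called higher and 6.69% lower. None of the 13 mtDNA members was called in either direction. The nuclear members had a median log2 difference of 0.75, against 0.01 over all genes tested, and 78 of 80 had a positive difference. Values of 76 of the 80 did not overlap between the 3 AOO and the 2 water libraries, all higher under AOO, while 28.8% of all genes were higher without overlap.

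The summed level of the 80 nuclear genes shows this in each library. It was 172077, 195872 and 157321 in the knockout AOO libraries, against 107511 and 115888 in the knockout water libraries, which is 0.902%, 1.09% and 0.971% of the reads against 0.559% and 0.599%. The mean was 175089.9 ± 19451 (SD, n = 3) under AOO and 111699 ± 5923 (SD, n = 2) under water, and the lowest AOO library lay above both water libraries. In control keratinocytes the same sum was 135514, 144910.5 and 162085 in the control AOO libraries, against 101023 and 142571 in the control water libraries. Here the groups overlapped, since control water replicate 2 exceeded the lowest control AOO library.

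**Figure D1:**
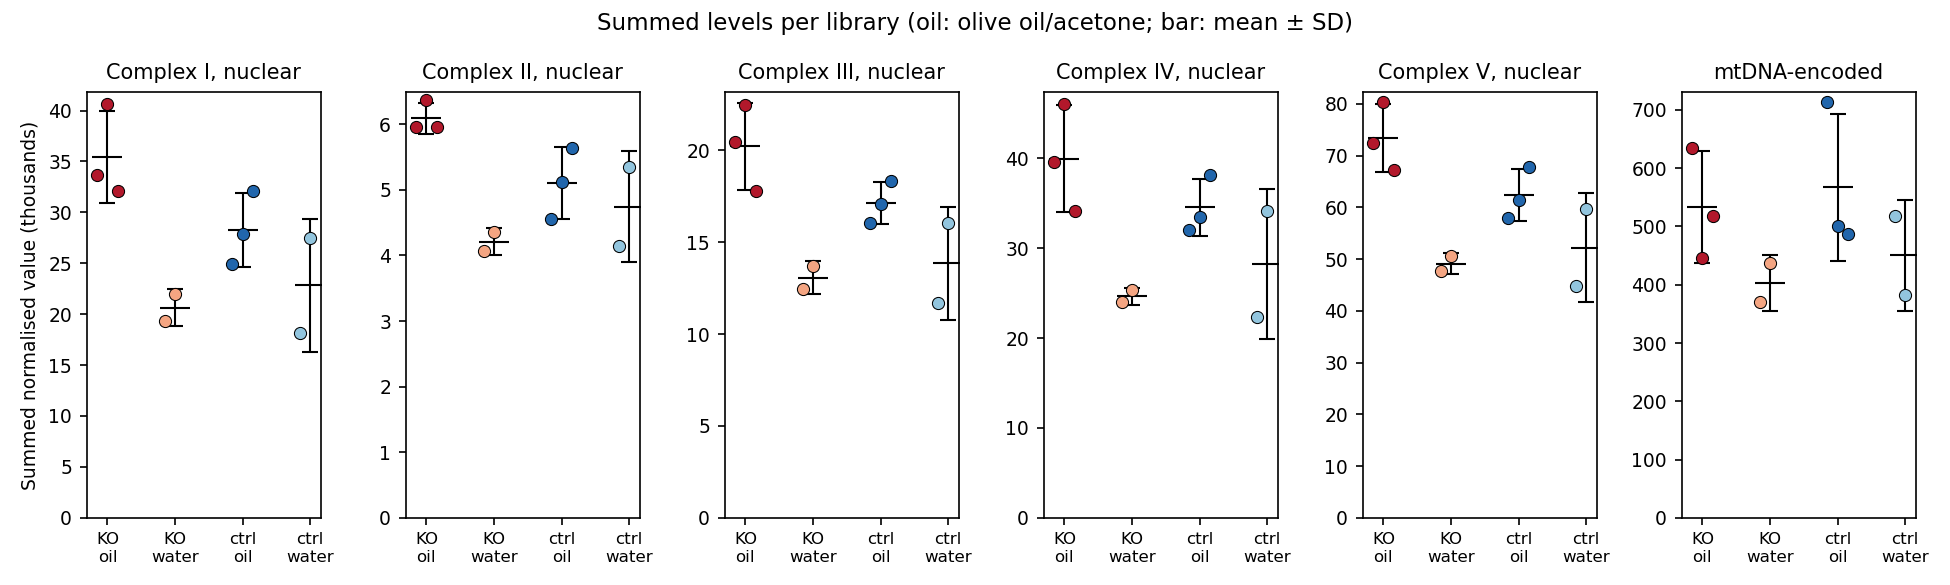
Summed normalised values (axes in units of 1000, from 0) of the nuclear members of each complex and of the 13 mtDNA members, 1 point per library and mean ± SD per group (oil: olive oil/acetone; ctrl: control). In all 5 nuclear panels the 3 knockout AOO points lie above the 2 knockout water points, and the 2 control water points lie apart from each other.

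By complex, 19 of 36 nuclear complex I genes were called higher, with 1 of 4 in complex II, 4 of 8 in complex III, 10 of 15 in complex IV and 7 of 17 in complex V. Over all genes, 6.74% were called higher. The median log2 difference was 0.83 in complex I, 0.55 in complex II, 0.59 in complex III, 0.74 in complex IV and 0.68 in complex V. In summed levels, complex I held 35459 ± 4518 units in knockout AOO and 20649.5 ± 1831 in knockout water libraries, and complex II 6094 ± 238 and 4212 ± 211 (SD, n = 3 and n = 2, also below). Complex III held 20228 ± 2359 and 13075 ± 908, complex IV 39929 ± 5953 and 24632 ± 939, and complex V 73379.8 ± 6586 and 49131 ± 2033. Each complex thus had a mean under AOO above that under water by more than the SD of either group. The ranges of single genes overlapped widely between the complexes, and differences between complexes were not tested. These counts rest on the water libraries: without knockout water replicate 1 or replicate 2 the fit called 0 members, when it called only 8 and 31 genes higher in all. It called 2 members without knockout AOO replicate 2 or replicate 3, beside 1.47% and 0.98% of all genes called higher. Without control AOO replicate 2 it called 13, beside 2.89% of all genes. The nuclear median stayed between 0.63 and 0.86 with any 1 library left out.

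**Figure D2:**
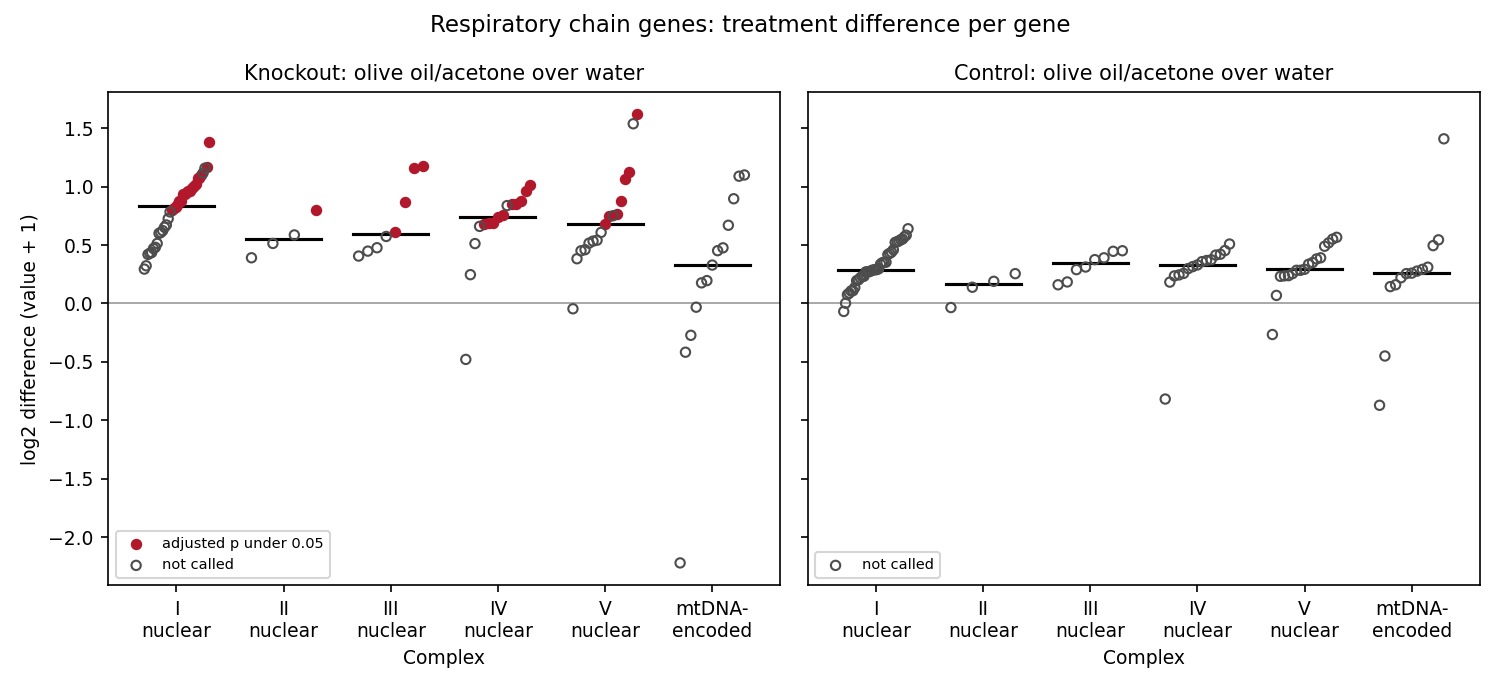
Log2 difference of olive oil/acetone over water for each member, by complex and coding, in knockout (left) and control mice (right). Filled points passed an adjusted p under 0.05, open points did not, and black lines are medians. The 41 filled points are all nuclear members in the knockout panel.

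In complex I the lowest adjusted p-values were those of accessory subunits. Ndufb7, an accessory subunit on the outer face of the membrane arm (chromosome 8, 83566671 to 83571626, plus strand, GRCm38), had values of 641, 824 and 673 in the knockout AOO libraries, against 319 and 231 in the knockout water libraries. All AOO libraries lay above both water libraries, 2.60-fold by the fit, with a log2 difference of 1.38 ± 0.24 (SE; limma adjusted p = 0.0147). Ndufa8, a further subunit of that arm, had values of 816, 940.4 and 809 in the knockout AOO libraries, against 426 and 434 in the knockout water libraries (log2 difference 0.99 ± 0.18 SE, limma adjusted p = 0.0156). Ndufa10, an accessory subunit of the membrane arm, had values of 1441, 1582 and 1466 in the knockout AOO libraries, against 774 and 763 in the knockout water libraries (log2 difference 0.96 ± 0.21 SE, limma adjusted p = 0.0223). The groups did not overlap for any of these genes, which their choice by lowest adjusted p makes likely.

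The 7 nuclear core subunits of complex I bind the flavin and the iron-sulfur clusters and form the electron path to ubiquinone. Of these, 6 were called higher, against 6.74% of all genes, with a median log2 difference of 1.02 over the 7. Among them were Ndufv1, which binds the flavin, with a log2 difference of 0.84, and Ndufs8, which carries iron-sulfur clusters, with 1.17. Of the 29 other nuclear subunits 13 were called, with a median of 0.80. The smallest differences in complex I were those of Ndufs4 (0.29) and Ndufv3 (0.32), neither of them called. The X-linked members are given here because the AOO and water libraries differ in Y-linked transcripts: Ndufa1 (0.96) and Cox7b of complex IV (0.69) were called and Ndufb11 (0.51, limma adjusted p = 0.05298) was not.

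Complex II, succinate dehydrogenase, is encoded by nuclear genes only. Sdhd, a membrane anchor that helps bind ubiquinone, was the member called, with values of 1192, 1312 and 1238 in the knockout AOO libraries, against 635 and 805 in the knockout water libraries (log2 difference 0.80 ± 0.20 SE, limma adjusted p = 0.0334). The iron-sulfur subunit Sdhb had values of 1068, 1112 and 1039 in the knockout AOO libraries, against 688 and 741 in the knockout water libraries (log2 difference 0.59 ± 0.19 SE, limma adjusted p = 0.0592). Sdhc, the other anchor, had values of 1588, 1696 and 1409 in the knockout AOO libraries, against 1043 and 1144 in the knockout water libraries (log2 difference 0.51 ± 0.17 SE, limma adjusted p = 0.0659). Sdha, the flavoprotein that oxidises succinate, had values of 2107, 2249 and 2272 in the knockout AOO libraries, against 1696 and 1671 in the knockout water libraries (log2 difference 0.39 ± 0.14 SE, limma adjusted p = 0.07795). In all 4 genes every AOO library lay above both water libraries, but Sdhb, Sdhc and Sdha did not pass the threshold.

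In complex III the lowest adjusted p-values were those of small subunits. Uqcr10, a small subunit beside cytochrome c1, had values of 1387, 1783 and 1209 in the knockout AOO libraries, against 549 and 735 in the knockout water libraries (log2 difference 1.18 ± 0.29 SE, limma adjusted p = 0.0316). Uqcrq, the ubiquinone-binding protein subunit, had values of 1968, 2757 and 1863 in the knockout AOO libraries, against 871 and 1075 in the knockout water libraries (log2 difference 1.16 ± 0.29 SE, limma adjusted p = 0.0326). Uqcr11 had values of 1474, 1779 and 1314 in the knockout AOO libraries, against 796 and 861 in the knockout water libraries (log2 difference 0.87 ± 0.23 SE, limma adjusted p = 0.0374). The fourth gene called was Uqcrfs1, the Rieske iron-sulfur protein, with a log2 difference of 0.61 ± 0.18 (SE; limma adjusted p = 0.0491). The core proteins Uqcrc1 and Uqcrc2 had log2 differences of 0.45 and 0.41 and were not called.

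In complex IV, cytochrome c oxidase, the nuclear subunits surround a catalytic core made from mtDNA. Cox5b, a subunit on the matrix side that binds zinc, had values of 2099.6, 2527 and 2055 in the knockout AOO libraries, against 1067 and 1130.1 in the knockout water libraries (log2 difference 1.01 ± 0.20 SE, limma adjusted p = 0.0169). Cox5a, also on the matrix side, had values of 1355, 1504 and 1136 in the knockout AOO libraries, against 728 and 837 in the knockout water libraries (log2 difference 0.76 ± 0.16 SE, limma adjusted p = 0.0223). Cox8a, a small membrane subunit, had values of 3701, 4507 and 3437 in the knockout AOO libraries, against 2078 and 2199 in the knockout water libraries (log2 difference 0.85 ± 0.20 SE, limma adjusted p = 0.0282). Cox4i1, Cox6a1, Cox6b1, Cox6c, Cox7b, Cox7c and Ndufa4 were called as well, with log2 differences of 0.68 to 0.96. Cox7a2 (0.66) and Cox7a2l (0.51), also expressed in most tissues, were not called (limma adjusted p = 0.0904 and 0.07104).

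None of the isoforms tied to particular tissues or conditions was called. Ndufa4l2, a paralogue of Ndufa4 known to be induced by low oxygen, was abundant, with values of 4963, 4629 and 3261 in the knockout AOO libraries, against 3747 and 3371 in the knockout water libraries (log2 difference 0.25 ± 0.24 SE, limma adjusted p = 0.486). Its knockout groups overlapped. Per kilobase, Ndufa4l2 was 1.98, 1.36 and 1.45 times as high as Ndufa4 in the knockout AOO libraries, against 2.78 and 2.13 times in the knockout water libraries. In the controls this ratio was 2.36, 2.61 and 3.08 under AOO, against 3.08 and 3.35 under water. The 3 knockout AOO libraries thus had the 3 lowest ratios of all 10 libraries. Cox6b2, known as a testis isoform, reached 33.1, 24.3 and 41.5 under AOO and 15.9 and 19.5 under water in the knockout (log2 difference 0.84 ± 0.40 SE, limma adjusted p = 0.165), and Cox7a1, the heart and skeletal muscle isoform, 1.03, 17.1 and 8.49 against 7.06 and 10.9 (log2 difference -0.48 ± 0.87 SE, limma adjusted p = 0.717). These values are close to the filter, and a skeletal muscle list of 8 genes summed to 243 to 321 in knockout AOO and 269 to 305 in knockout water libraries.

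In complex V the genes with the lowest adjusted p belonged to its stalks and membrane part. Atp5o, the peripheral stalk subunit that attaches to the catalytic head, had values of 1521, 1744 and 1386 in the knockout AOO libraries, against 683 and 792 in the knockout water libraries (log2 difference 1.07 ± 0.22 SE, limma adjusted p = 0.0192). Atp5mpl, a small proteolipid of the membrane part, had values of 1117, 1540.4 and 1156 in the knockout AOO libraries, against 368 and 455 in the knockout water libraries (log2 difference 1.62 ± 0.34 SE, limma adjusted p = 0.0209), the largest positive difference of any member. Atp5e, the epsilon subunit of the central stalk, had values of 2079.9, 2847 and 2022 in the knockout AOO libraries, against 1043 and 1049 in the knockout water libraries (log2 difference 1.13 ± 0.26 SE, limma adjusted p = 0.0263). All 3 genes for the c ring that proton flow turns were called, Atp5g1 at 0.76, Atp5g2 at 0.88 and Atp5g3 at 0.68, and so was Atp5j of the peripheral stalk at 0.74. The subunits of the catalytic head, Atp5a1 (0.38) and Atp5b (0.52), were not called (limma adjusted p = 0.08595 and 0.0531). Atp5s, whose product is a coupling factor of the synthase rather than a core subunit, had a log2 difference of -0.05.

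Promoter sequence was examined for the nuclear members, since they moved together. RefSeq promoters (build GRCm38.p6, 250 bases before to 50 after each transcript start) matched 67 of the 80 nuclear members by symbol or gene ID, 35 of them among the 41 called. The letters GCGCATGC, a core of the motif of NRF1 (a known regulator of respiratory chain genes), were found on either strand in 10 of the 67 (14.9%), against 3.05% of the 27025 genes in the table. AAGATGGC, a motif of YY1, was found in 10 (14.9%), against 3.19% of all genes, and CCGGAAGT, a motif of the ETS family that includes GABPA (NRF2), in 5 (7.46%), against 4.31%. TATAAA was found in 5 (7.46%), against 15.7%. GCGCATGC lay in 4 of the 35 called and in 6 of the 32 not called, AAGATGGC in 3 and in 7, and CCGGAAGT in 3 and in 2. GCGCATGC overlaps its own reverse complement by 6 bases, so 1 stretch can match on both strands. In 8 of the 10 genes with AAGATGGC it began 23 to 39 bases after the start. The 27025 genes were not limited to those listed for these libraries, and a share over listed genes was not taken. A match is a description of these letters and not of binding. Promoters of 4 called members were picked after the motifs were seen, to show the self-overlapping GCGCATGC match, CCGGAAGT beside GCGCATGC, and the AAGATGGC position. They read from 5′ to 3′ on the gene's strand, with GCGCATGC, CCGGAAGT and AAGATGGC (or their reverse complements) in capitals: Atp5g2 at chr15:102670998-102671297 and Cox6a1 at chr5:115348909-115349208 with the self-overlapping match, Uqcr11 at chr10:80406772-80407071 with CCGGAAGT and GCGCATGC, all 3 on the minus strand, and Ndufs7 at chr10:80249199-80249498 on the plus strand with AAGATGGC. The TATAAA in Ndufs7 is left in lower case.
Atp5g2: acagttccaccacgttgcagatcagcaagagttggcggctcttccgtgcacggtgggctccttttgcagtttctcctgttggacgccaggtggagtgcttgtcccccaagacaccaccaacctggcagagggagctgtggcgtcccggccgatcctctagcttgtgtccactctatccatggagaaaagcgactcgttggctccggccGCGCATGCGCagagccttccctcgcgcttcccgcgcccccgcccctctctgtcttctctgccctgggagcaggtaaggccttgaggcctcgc
Cox6a1: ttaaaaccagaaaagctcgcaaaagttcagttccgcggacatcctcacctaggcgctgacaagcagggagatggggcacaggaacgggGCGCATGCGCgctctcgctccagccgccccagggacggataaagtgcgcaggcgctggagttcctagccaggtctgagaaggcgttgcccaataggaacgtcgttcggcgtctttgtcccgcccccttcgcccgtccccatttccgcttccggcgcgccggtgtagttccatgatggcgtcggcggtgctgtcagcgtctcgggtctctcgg
Uqcr11: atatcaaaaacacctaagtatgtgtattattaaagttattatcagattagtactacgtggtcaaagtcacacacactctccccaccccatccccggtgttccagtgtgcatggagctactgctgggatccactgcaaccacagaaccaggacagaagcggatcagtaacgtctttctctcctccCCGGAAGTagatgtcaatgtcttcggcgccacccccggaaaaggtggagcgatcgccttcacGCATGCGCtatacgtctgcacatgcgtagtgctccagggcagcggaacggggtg
Ndufs7: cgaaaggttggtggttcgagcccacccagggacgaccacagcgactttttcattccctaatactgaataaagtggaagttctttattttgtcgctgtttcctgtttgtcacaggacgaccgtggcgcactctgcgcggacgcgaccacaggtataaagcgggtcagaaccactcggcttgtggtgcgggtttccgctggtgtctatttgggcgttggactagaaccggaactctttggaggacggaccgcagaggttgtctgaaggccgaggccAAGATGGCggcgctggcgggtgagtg

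No mtDNA member passed the threshold in the limma fit used throughout, and whether mtDNA and nuclear members differ was not tested. Other settings called up to 3 of them higher. DESeq2 called mt-Atp6, mt-Co2 and mt-Cytb, beside 11.8% of all genes higher. With libraries scaled to equal totals mt-Atp6 and mt-Cytb were called, beside 8.43% of all genes. With only the 2 groups compared mt-Atp6 and mt-Co2 were called, beside 12.3% of all genes. Without control AOO replicate 3 mt-Atp6 was called, beside 7.91% of all genes. The median log2 difference of the 13 in the knockout was 0.33, or 0.15 with a trend over exonic length removed. It was 0.20 for the 7 genes outside the stretch from mt-Co2 to mt-Nd4l described below and 0.69 for the 6 inside it. Of the 7, mt-Co1 and mt-Nd4 are copied in part as well. Of all 13 genes, 3 had an unadjusted p under 0.05, against 70 of 80 nuclear members and 17.2% of all genes higher at that p. The summed level of the mtDNA genes was 635364, 446155 and 518422 in the knockout AOO libraries, against 369595 and 437141 in the knockout water libraries. Every knockout AOO library thus lay above both knockout water libraries. In control mice it was 712992, 501536 and 486728 in the control AOO libraries, against 517857 and 383214 in the control water libraries, and the groups overlapped. The summed mtDNA level was 3.69, 2.28 and 3.29 times the summed nuclear level in the knockout AOO libraries, against 3.44 and 3.77 times in the knockout water libraries. In control mice the ratio was 5.26, 3.46 and 3.00 under AOO, against 5.13 and 2.69 under water. The 4 groups overlapped in this ratio.

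Along the mitochondrial genome the 13 genes fell into separate ranges of level. In all libraries mt-Nd1, mt-Nd2, mt-Co1, mt-Nd4, mt-Nd5, mt-Nd6 and mt-Cytb measured 5631 to 383885 units. The 6 neighbours from mt-Co2 to mt-Nd4l (mitochondrial positions 7013 to 10173, GRCm38) measured only 6.56 to 706. The genes on both sides of that stretch, mt-Co1 and mt-Nd4, had 188242 units or more and 29446 or more in every library. These 6 genes are mt-Co2, mt-Atp8, mt-Atp6, mt-Co3, mt-Nd3 and mt-Nd4l, and the stretch has near-identical copies in the nuclear genome.

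**Figure D3:**
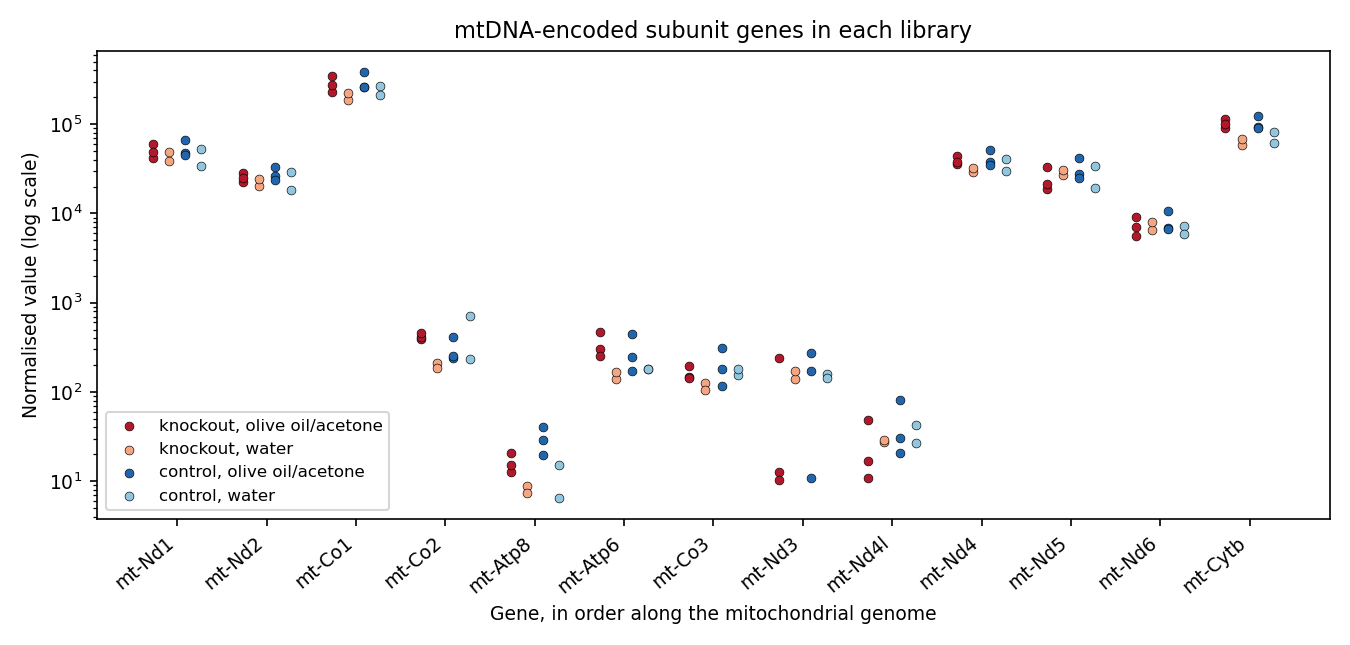
Normalised value (log axis) of the 13 mtDNA members in each library, ordered along the mitochondrial genome and coloured by group. The 6 genes from mt-Co2 to mt-Nd4l lie at 6.56 to 706, and the 7 others at 5631 to 383885.

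Pseudogenes annotated on chromosome 1 between 24611535 and 24616197 (minus strand) copy this stretch. Gm28661 matched 99.6% of mt-Co2, Gm10925 99.6% of mt-Atp6, Gm28437 99.9% of mt-Co3 and Gm10222 98.99% of mt-Nd4l, each at 100% identity. Gm28438 matched 99.1% of mt-Nd3 at 99.7% identity, Gm28439 63.6% of mt-Nd4 at 100% and Gm29216 31.3% of mt-Co1 at 99.8%. The mt-Atp8 gene lies within the copied stretch and overlaps mt-Atp6 by some bases, and no copy of it is annotated by name. Counts of these genes cannot be divided with certainty between mtDNA and chromosome 1, and how reads with several matches were counted is not given in the sources used here. That this lowers the deposited values of the 6 genes was not tested.

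For mt-Nd3 the copy differs by 1 base. The first 60 bases of mt-Nd3 (mitochondrial positions 9459 to 9518, plus strand) and of Gm28438 (chromosome 1, 24613060 to 24613119, minus strand) are shown because the libraries differed in which gene held the reads. Capitals mark the difference, T3C, counted from 1 at the 5′ end with the mt-Nd3 base first.
mt-Nd3: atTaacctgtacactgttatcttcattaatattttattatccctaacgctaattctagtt
Gm28438: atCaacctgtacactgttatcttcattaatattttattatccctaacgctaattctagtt

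The value of mt-Nd3 was 240.1, 12.6 and 10.4 in the knockout AOO libraries, against 139 and 172 in the knockout water libraries, and 275, 170.1 and 10.98 in the control AOO libraries, against 158 and 143 in the control water libraries. Gm28438 ran the other way, with 9.31, 228 and 166 in the knockout AOO libraries, against 9.702 and 13.4 in the knockout water libraries, and 23.9, 10.5 and 196 in the control AOO libraries, against 15.4 and 4.68 in the control water libraries. Knockout AOO replicates 2 and 3 and control AOO replicate 3 had low mt-Nd3 and high Gm28438, and the 7 other libraries had the reverse. The sum of the pair was 249, 241 and 176 in the knockout AOO libraries, against 149 and 185 in the knockout water libraries, and 299, 181 and 207 in the control AOO libraries, against 173 and 148 in the control water libraries. The log2 difference of mt-Nd3 in the knockout was -2.22 ± 1.40 (SE; limma adjusted p = 0.278) alone and 0.40 (adjusted p = 0.299) for the sum, so that its sign depends on how the copy is counted. This sum was added after the data were seen.

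**Figure D4:**
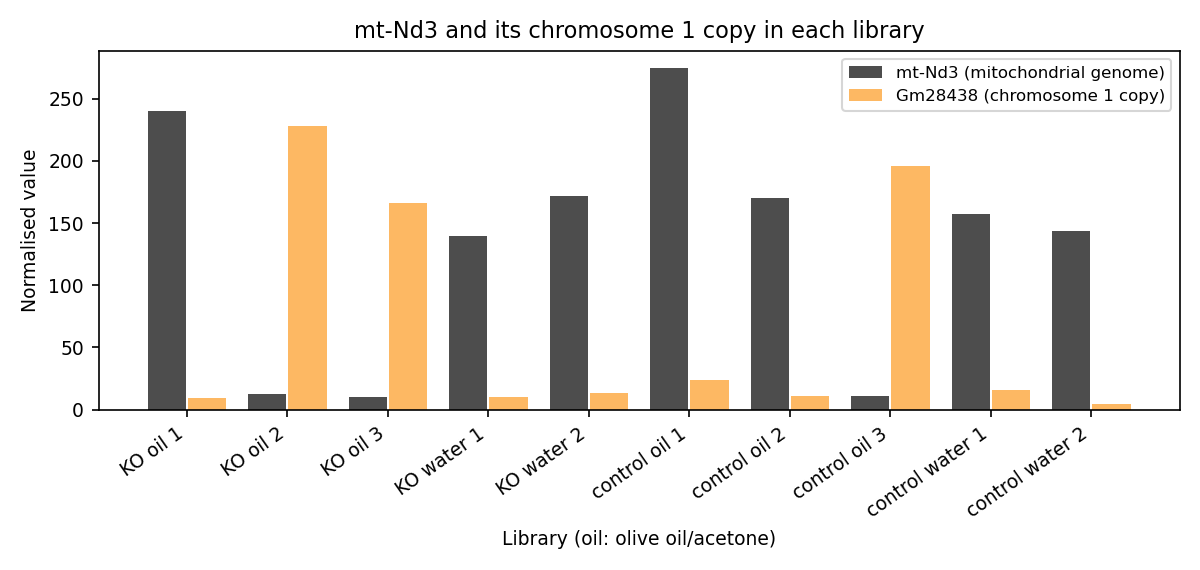
Normalised values of mt-Nd3 and of its chromosome 1 copy Gm28438 in each of the 10 libraries (bars from 0; oil: olive oil/acetone). In 3 AOO libraries Gm28438 is at 166 to 228 and mt-Nd3 at 10.4 to 12.6, and in the 7 others mt-Nd3 is at 139 to 275 and Gm28438 at 4.68 to 23.9.

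Among mtDNA genes outside this stretch, mt-Cytb, the catalytic cytochrome b of complex III, had the lowest p. Its values were 114339.6, 90395 and 101143 in the knockout AOO libraries, against 59068 and 68966 in the knockout water libraries (log2 difference 0.67 ± 0.23 SE, limma adjusted p = 0.0754). All 3 AOO libraries were higher, but the gene did not pass the threshold in this fit. The complex IV core gene mt-Co1 had values of 345399, 228657 and 277708 in the knockout AOO libraries, against 188242 and 222538 in the knockout water libraries (log2 difference 0.45 ± 0.29 SE, limma adjusted p = 0.293). The complex I genes mt-Nd1, mt-Nd2, mt-Nd4 and mt-Nd5 had log2 differences of 0.20, 0.18, 0.33 and -0.27, and in mt-Nd4 alone of these 4 the groups did not overlap. For mt-Nd6, the 1 subunit gene on the opposite strand of mtDNA, the log2 difference was -0.03. The strand setting of the counting is not given in the sources used here, so reads from the opposite strand at mt-Nd6 cannot be told apart.

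Inside the stretch, the catalytic complex IV gene mt-Co2 measured 396, 408 and 463 in the knockout AOO libraries, against 213 and 184 in the knockout water libraries (log2 difference 1.09 ± 0.40 SE, limma adjusted p = 0.0847). With its copy added it measured 690.2, 683 and 723 in the knockout AOO libraries, against 363 and 331 in the knockout water libraries, a log2 difference of 1.01 (limma adjusted p = 0.0519). The proton channel gene of complex V, mt-Atp6, measured 469.8, 300.0 and 250.04 in the knockout AOO libraries, against 138 and 168 in the knockout water libraries (log2 difference 1.10 ± 0.37 SE, limma adjusted p = 0.070), or a log2 difference of 0.83 with its copy added (limma adjusted p = 0.0751). For both genes all AOO libraries were higher with and without the copy. The other 3 genes, mt-Atp8, mt-Co3 and mt-Nd4l, had log2 differences of 0.90, 0.48 and -0.42. None of these 5 genes passed the threshold in this fit. All but mt-Atp8 have an annotated copy of nearly their whole length, and mt-Atp8 lies within the copied stretch.

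In control keratinocytes AOO against water gave 0 calls among the 93 members by limma, edgeR or DESeq2. Over all genes limma called 0.0564% higher and 0.00627% lower, while DESeq2 called 129 genes higher and 224 lower. At an unadjusted p under 0.05, 13 members were higher and 0 lower, against 4.91% of all genes higher. Without overlap 20 members were higher, against 12.2% of all genes. The median log2 difference was 0.29 for the nuclear members and 0.26 for the mtDNA members. Members with low p-values included mt-Atp8 and Uqcrc1. Uqcrc1, a core protein of complex III, had values of 5537, 5939 and 6142 in the control AOO libraries, against 4314 and 4643 in the control water libraries (log2 difference 0.39 ± 0.14 SE, limma adjusted p = 0.295). For mt-Atp8, a small membrane subunit of complex V, the values were 40.8, 28.7 and 19.8 in the control AOO libraries, against 15.4 and 6.56 in the control water libraries (log2 difference 1.41 ± 0.49 SE, limma adjusted p = 0.284). Neither passed the threshold.

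The direction in the controls depends on the 2 water libraries, whose summed nuclear levels of 101023 and 142571 lay below and within the range of the control AOO libraries. Without replicate 2 the nuclear median was 0.60 and the mtDNA median 0.14, and 56 members had an unadjusted p under 0.05, beside 19.0% of all genes in either direction. Without replicate 1 the medians were -0.01 and 0.48, and 4 members did, beside 8.06% of all genes. No member was called in either case.

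Under AOO, knockout against control gave 0 called members by limma, edgeR or DESeq2, and limma called 0% of all genes in either direction. Over all genes DESeq2 called 97 higher and 71 lower. At an unadjusted p under 0.05, 9 members were higher, against 5.47% of all genes. The nuclear median was 0.31, 79 of 80 nuclear members had a positive difference, and 37 were higher without overlap, against 8.55% of all genes. Ndufb7 measured 641, 824 and 673 in the knockout AOO libraries, against 427, 411 and 547 in the control AOO libraries (log2 difference 0.63 ± 0.22 SE, limma adjusted p = 0.354). Ndufv1, the flavin-binding subunit of complex I, measured 1924, 2201 and 1970.1 in the knockout and 1307, 1405 and 1775 in the control AOO libraries (log2 difference 0.45 ± 0.16 SE, limma adjusted p = 0.3598). Atp5g1 measured 1973, 2351 and 1946 in the knockout and 1307, 1543 and 1812 in the control AOO libraries (log2 difference 0.43 ± 0.16 SE, limma adjusted p = 0.372). These 3 genes were named for the lowest p in this comparison, and none was called. Each knockout library exceeded each control library for them, which that choice makes likely and which is no further evidence. The mtDNA members had a median of -0.12 in this comparison, which turned to 0.07 without control AOO replicate 1. Without knockout AOO replicate 2 the nuclear median was 0.20 and 0 members had an unadjusted p under 0.05. Leaving out control AOO replicate 1, 2 or 3 gave 1, 0 and 25 members at that p, beside 10.2%, 7.21% and 15.2% of all genes in either direction.

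Under water, knockout against control gave 0 called members by limma, edgeR or DESeq2, and limma called 0% of all genes. Over all genes DESeq2 called 0 higher and 6 lower. The nuclear median was -0.13 and the mtDNA median -0.17. Only 1 member had an unadjusted p under 0.05 and was lower, against 3.22% of all genes. This was mt-Co2, with 213 and 184 in the knockout water libraries, against 232 and 706 in the control water libraries (log2 difference -1.03 ± 0.44 SE, limma adjusted p = 0.963). The next were mt-Co3 (log2 difference -0.53 ± 0.39 SE, limma adjusted p = 0.963) and Ndufa4l2 (log2 difference -0.35 ± 0.26 SE, limma adjusted p = 0.963). The 4 members mt-Co2, mt-Co3, mt-Atp6 and Sdha were lower without overlap, against 17.8% of all genes. Without control water replicate 2 the nuclear median was 0.16 and the mtDNA median -0.30. Without replicate 1 they were -0.46 and 0.04, so that both directions depend on the library.

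The interaction asks whether AOO against water differed between knockout and control, and no member was called by limma, edgeR or DESeq2, with 0% of all genes called by limma in either direction. Over all genes DESeq2 called 139 higher and 30 lower. At an unadjusted p under 0.05, 6 members had a larger difference in the knockout, against 6.15% of all genes. All 80 nuclear members had a positive interaction, with a median of 0.42, while the mtDNA median was -0.08, or 0.08 when libraries were scaled to equal totals. The lowest p-values were those of Ndufb7 (0.96 ± 0.35 SE, limma adjusted p = 0.375), mt-Co2 (1.54 ± 0.56 SE, limma adjusted p = 0.375) and Ndufv1 (0.64 ± 0.26 SE, limma adjusted p = 0.399) on the log2 scale. For mt-Co2, control water replicate 1 held 232 units and replicate 2 held 706, so the size of its interaction depends on the library. Without control water replicate 1 the nuclear median was 0.74, the mtDNA median -0.24 and the mtDNA gene mt-Co2 was called, and without control water replicate 2 the medians were 0.10 and 0.22 and no member was called. The 41 calls in the knockout and the 0 calls in the control thus do not show that the genotypes differ.

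The genes that build and serve the respiratory chain were examined in the same knockout comparison of AOO with water. Over all genes tested, 6.74% were called higher in it and 6.69% lower. Of 77 mitochondrial ribosome genes, whose products translate the mtDNA messages, 26 were called higher and 0 lower, with a median of 0.66. Mrpl20 measured 666, 899.99 and 722 in the knockout AOO libraries, against 393 and 369.8 in the knockout water libraries (log2 difference 0.99 ± 0.19 SE, limma adjusted p = 0.0166), and Mrps9 had a log2 difference of 0.74 ± 0.15 (SE; limma adjusted p = 0.0203). Of 47 assembly factors 7 were called higher and 0 lower, with a median of 0.71. Cmc2, a factor for complex IV, measured 215, 237 and 226 in the knockout AOO libraries, against 78.5 and 65.7 in the knockout water libraries (log2 difference 1.64 ± 0.30 SE, limma adjusted p = 0.0153), and Atpaf2, a chaperone of the ATP synthase head, had a log2 difference of 0.88 ± 0.22 (SE; limma adjusted p = 0.0329). The 20 genes of electron carriers and ubiquinone synthesis gave 4 higher and 0 lower calls, with Coq7 at 1.24 ± 0.27 (SE; limma adjusted p = 0.02204) and Coq3 at 1.21 ± 0.28 (SE; limma adjusted p = 0.0269) on the log2 scale.

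The 26 genes of mtDNA replication and expression other than the ribosome gave 5 higher and 1 lower call, with a median of 0.34. The share called higher was 19.2%, beside 6.74% of all genes. The mitochondrial elongation factors Tufm and Tsfm had log2 differences of 0.66 ± 0.15 (SE; limma adjusted p = 0.02597) and 0.94 ± 0.23 (SE; limma adjusted p = 0.02996). Of 10 regulators of mitochondrial biogenesis 1 was called higher and 2 lower, with a median of -0.19. The share called higher, 10%, was near the 6.74% of all genes, and 6.69% of all genes were called lower. Esrra, a nuclear receptor that drives respiratory chain genes, measured 1425, 1909 and 1473 in the knockout AOO libraries, against 1084 and 977 in the knockout water libraries (log2 difference 0.63 ± 0.17 SE, limma adjusted p = 0.0411). Pprc1, a coactivator related to PGC-1, measured 1726, 1032 and 1278 in the knockout AOO libraries, against 2597 and 2369.7 in the knockout water libraries (log2 difference -0.91 ± 0.26 SE, limma adjusted p = 0.0465).

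Neighbouring lists of metabolism and of the cytosolic ribosome had medians below the 0.75 of the nuclear members. In this comparison 6.74% of all genes were called higher. Of 17 tricarboxylic acid cycle genes 3 were called higher and 0 lower, with a median of 0.22, and Idh3g and Idh3b, subunits of isocitrate dehydrogenase, had log2 differences of 0.70 ± 0.16 (SE; limma adjusted p = 0.0275) and 0.60 ± 0.15 (SE; limma adjusted p = 0.0322). Of 17 glycolysis entries 1 was called higher and 1 lower, with a median of 0.10, a share of 5.88% in each direction that is near that of all genes. Pfkp, a phosphofructokinase, measured 8750.1, 4451 and 4853 in the knockout AOO libraries, against 14730.3 and 13225 in the knockout water libraries (log2 difference -1.28 ± 0.34 SE, limma adjusted p = 0.0391), and Eno1, an enolase, had a log2 difference of 0.57 ± 0.16 (SE; limma adjusted p = 0.0456). Of 77 cytosolic ribosome genes 3 were called higher and 0 lower, with a median of 0.38, a share of 3.896% that lies below the 6.74% of all genes. Those called included Rpl13a at 0.82 ± 0.18 (SE; limma adjusted p = 0.0219) and Rpl41 at 0.90 ± 0.25 (SE; limma adjusted p = 0.0427). Differences between these lists were not tested.

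Markers of other cells and states moved with the same comparison, in which 6.74% of all genes were called higher and 6.69% lower. Of 9 proliferation genes 8 were called higher, and the list summed to 17296, 14434 and 18069 in the knockout AOO libraries, against 5812 and 6964 in the knockout water libraries. In the controls it summed to 10867, 14840.0 and 19246 in the control AOO libraries, against 7733 and 10144 in the control water libraries. All 5 red blood cell genes were called higher, and they summed to 14407, 27549 and 14786 in the knockout AOO libraries, against 1176 and 2544 in the knockout water libraries, and in the controls to 11899.8, 4427 and 13396 in the control AOO libraries, against 3321 and 6497 in the control water libraries. Of 6 endothelial genes 2 were called higher, with sums of 317 to 474 in knockout AOO and 67.9 to 219 in knockout water libraries, and Cdh5 and Emcn at 0 in knockout water replicate 1. The 8 hair shaft and inner root sheath genes tested gave no call and summed to 307, 2492 and 828 in the knockout AOO libraries, against 187 and 203 in the knockout water libraries, and in the controls to 219, 150.1 and 223 in the control AOO libraries, against 121 and 11331 in the control water libraries. Krt71 and Krt73 were at 0 in control water replicate 1. Of 6 basal keratinocyte genes 1 was called lower, with a median of -0.52, and of 7 suprabasal genes 3 were called higher, with a median of 0.37. The knockout AOO library with the highest nuclear respiratory chain level was replicate 2. By sums, replicate 2 was also the highest of its group in the red blood cell, hair, endothelial, suprabasal, sebocyte and Langerhans cell lists. It was the lowest in the proliferation, basal, melanocyte and epidermal T cell lists, and lay between in the fibroblast and skeletal muscle lists. Over the suprabasal genes the knockout AOO libraries summed to 281349, 574848 and 298147. Over the basal genes they summed to 849147, 510907 and 522241. The part of these cells and states in the respiratory chain result was not tested.

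**Figure D5:**
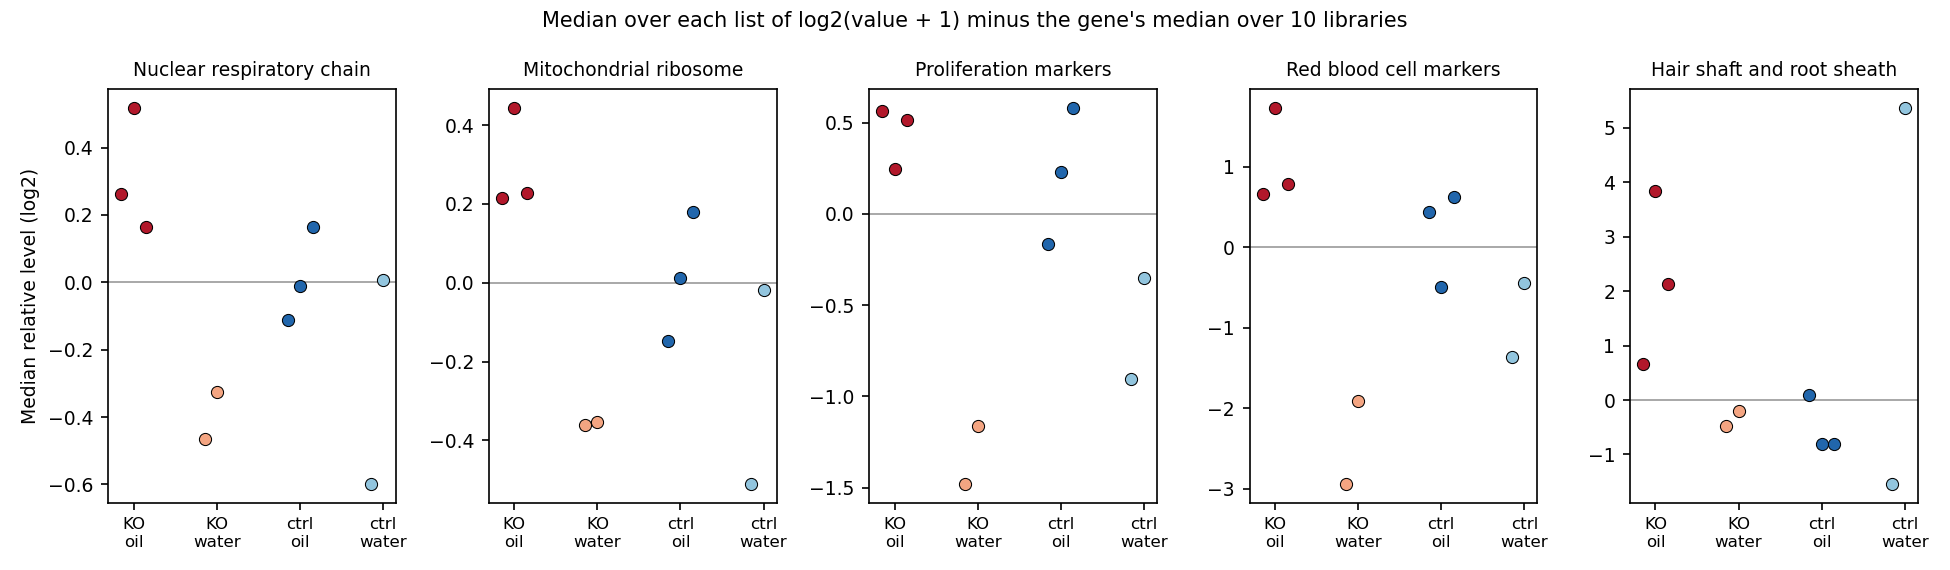
Median over each list of log2(value + 1) minus the gene's own median over the 10 libraries (log2 units), 1 point per library, by group (oil: olive oil/acetone; ctrl: control). The 2 knockout water points lie below all 3 knockout AOO points in each list, and control water replicate 2 is the highest point of the hair list.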

How the data were processed

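Total RNA of dorsal keratinocytes was sequenced in 10 libraries of 4 groups, taken from the labels. Per the submitters' processing notes, reads were trimmed with Trimmomatic 0.38, counted with featureCounts 2.0.0 and processed with DESeq2 1.26.0, build GRCm38. For the aligner, annotation release, strand setting and reads with several matches, nothing is given in the sources used here. The deposited values were treated as a signal: gene counts the authors had divided by size factors, from which whole reads were recovered for 100% of values (within 0.1 read). Depth limits members near the filter, such as Cox7a1.

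The members and lists were chosen with earlier results of these data known. All 17983 gene IDs were matched to GENCODE M21. Genes listed for all libraries were rescaled by median of ratios (factors of 0.995 to 1.004), filtered at 10 or more in at least 2 libraries, and tested as log2(value + 1) with limma 3.58.1 (R 4.3.3, 4 group means over all 10 libraries, trended eBayes, Benjamini-Hochberg over 15958 genes, adjusted p under 0.05). Fold changes are on that scale and understate those of low genes. Levels per kilobase use the shortest well-supported principal transcript. Members were named by rule: the 3 nuclear genes of each complex with the lowest adjusted p in the knockout comparison, the 3 members with the lowest p in each other comparison, all mtDNA and complex II members, the tissue isoforms, and the 2 genes of each pathway list with the lowest p. Further members account for the counts, and 1 member that the rule names is not reported here. No replicate pair agreed within counting noise (chi-square per gene of 11.4 or more). Alternatives were other scalings, pseudocounts, filters, group choices, edgeR 4.0.16, DESeq2 1.42.0, a replicate block, a length trend and each library left out.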

Additional observations from a re-analysis of the deposited data

How the results depend on the processing

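In the knockout comparison of AOO with water, 41 members were called. The count was 5 without the mean-variance trend in limma, when 2.98% of all genes were called higher. It was 67 with DESeq2, when 11.8% of all genes were called higher, while 6.74% were in the fit with the 41. With libraries left out in turn it ran from 0 to 62, and the nuclear median from 0.63 to 0.86. A lone water library was then assumed to vary like the other groups. The other planned settings gave 29 to 61, edgeR 41, and 0 members were called lower throughout. Scaling to equal totals gave 61, when 8.43% of all genes were called higher, with a nuclear median of 0.87 beside a median of 0.13 over all genes. Over all genes it called 1346 higher and 845 lower, against 1076 and 1067. In the interaction the count ran from 0 to 1 with libraries left out, the 1 being mt-Co2. The other comparisons gave 0 called members in every setting run, and for these a fit of 2 groups alone gives no interaction. Signs that reversed in the knockout comparison were those of mt-Nd3 (-2.22, and 0.40 with chromosome 1 copies added), mt-Nd6 (-0.03, and 0.0914 with equal totals, 0.0123 with edgeR, 0.11 with the block, and -0.21 to 0.14 with libraries left out), mt-Nd4l (-0.42, and -1.01 to 0.0309 with libraries left out) and Cox7a1 (-0.48, 0.052 with edgeR, and -1.16 to 0.42 with libraries left out). The cause was not tested. Among named members 989 values kept their call, 63 lost it, 28 gained it and 9 reversed.

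With replicate number as a block, 58 members were called, among them mt-Atp6, beside 8.45% of all genes. Libraries that share a number had correlations of -0.10 to 0.45 over 13 pairs, 11 of them positive, which does not show that the numbers pair the libraries.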

Other observations

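Transcript length ran with the size of the difference among the nuclear members. Across the 80 genes Spearman's rho between the length of the principal transcript and the log2 difference of AOO over water in the knockout was -0.34. The 40 shorter genes (median length of the 80: 760.5 bases) had a median difference of 0.81 and the 40 longer ones of 0.63. In control mice that rho was -0.11. With the length of all exons in place of the principal transcript, rho in the knockout was -0.28 for the members and -0.19 over all 15958 genes. Genes within these libraries are not independent replicates, so no p is given. With a trend over exonic length removed from each library, 29 members were called higher, beside 5.14% of all genes, and the nuclear median was 0.64.

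The size of a difference and its call did not run together for all members. Atp5k, the e subunit in the membrane part of ATP synthase, had values of 616, 1339 and 771 in the knockout AOO libraries, against 285 and 307 in the knockout water libraries. Its log2 difference of 1.54 ± 0.54 (SE; limma adjusted p = 0.0767) was the second largest of the nuclear members, and it did not pass the threshold. Ndufs3, a core subunit of complex I, had values of 858, 1139 and 937 in the knockout AOO libraries, against 404 and 564 in the knockout water libraries, and passed it with a log2 difference of 1.02 ± 0.25 (SE; limma adjusted p = 0.0296). Both genes were chosen after their values were seen.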
